A study of Mus musculus with 10 samples.

Results

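The genes described here make or sense prostanoids, the short-lived lipid signals formed from arachidonic acid. They were taken by gene symbol, from a list written with earlier results of these data known, and number 10 of the 35667 genes in the count files. The set holds 5 synthesis enzymes, Ptgs1, Ptgs2, Ptgis, Ptges and Ptgds, and 5 receptors, Tbxa2r, Ptgir, Ptger3, Ptger4 and Ptgfr. All 10 symbols were found and all 10 had enough counts to be tested. RNA sequencing was done on 10 libraries of aorta, the main artery leaving the heart, from C57BL/6 mice aged 12 weeks. The titles put 5 libraries in a group labelled knockout (KO) for Ovgp1, which encodes the secreted oviductal glycoprotein 1, and 5 in a group labelled wild type (WT), here KO1 to KO5 and WT1 to WT5. No treatment is given for either group. The genotype field names Ovgp1 for KO1 alone and Ovgp2 to Ovgp5 for the other KO libraries, while the titles and the design name Ovgp1 throughout. By its title, the study is about whether Ovgp1 raises blood pressure and reshapes vessels through non-muscle myosin.

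Cyclooxygenases, encoded by Ptgs1 and Ptgs2, convert arachidonic acid into prostaglandin H, from which separate terminal synthases make each prostanoid. In arteries prostacyclin, the product of the Ptgis enzyme, relaxes smooth muscle and restrains platelets through the receptor encoded by Ptgir, whereas thromboxane contracts smooth muscle through the receptor encoded by Tbxa2r. Prostaglandins of the D, E and F series act on receptors of the same family, some coupled to a rise in cyclic AMP and others to calcium release or to a fall in cyclic AMP.

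Total counts per library were 24434745 to 26694590 in KO and 21242030 to 24396394 in WT. The targeted gene, Ovgp1, went against the labels, with 17.8 to 21.9 CPM under the KO label against 1.98 to 4.69 CPM under the WT label (CPM is a library's counts for a gene relative to its total, scaled by TMM). Every direction below therefore follows the labels and not a shown loss of Ovgp1. The libraries labelled KO were nearly repeats of each other. For genes averaging 50 counts or more, the reduced chi-square of a pair of libraries, which is 1 for counting error alone, was 1.77 to 3.25 in KO and 11.03 to 154 in WT. Nothing in the labels says whether a group holds several animals, so p-values measure only the spread among these samples, which may be technical. For that reason each difference was also fitted with the KO counts summed into 1 sample, whose spread was taken from the WT libraries. The smooth muscle markers Acta2 and Myh11 were abundant in both groups, at 22658 and 9077 CPM in KO and 19869 and 8642 CPM in WT. The mitochondrial share of counts was 16.2% in WT1 and 13.2% in WT3 against 6.75% to 9.59% in the other WT libraries and 7.61% to 7.88% in KO.

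In aorta labelled KO, Ptges rose, and no other of the 10 genes passed the test. Ptges, which encodes microsomal prostaglandin E synthase 1, was 1.73-fold higher in the libraries labelled KO. Ptgs1 was 1.28-fold higher and missed the threshold at an adjusted p of 0.0811 (edgeR quasi-likelihood test, Benjamini-Hochberg over 15710 genes). Of the 10 genes, 1 passed higher and 0 lower, where 14.3% of all tested genes passed in either direction, 6.84% of them higher and 7.43% lower, so 1 call among 10 is close to the share among all genes. The split of all calls moved with the scaling: 1075 higher and 1167 lower with TMM became 1319 and 741 with upper-quartile factors and 1561 and 493 with total counts, while the log2 difference of Ptges was 0.79, 0.83 and 0.87. The median log2 difference was 0.11 over the 10 genes and -0.02 over all tested genes. With KO as 1 sample, 0 of the 10 passed after adjustment and 1, Ptges, had an unadjusted p under 0.05, against 0.0446% and 3.72% of all tested genes (2.36% with a higher level in KO).

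**Figure D1:**
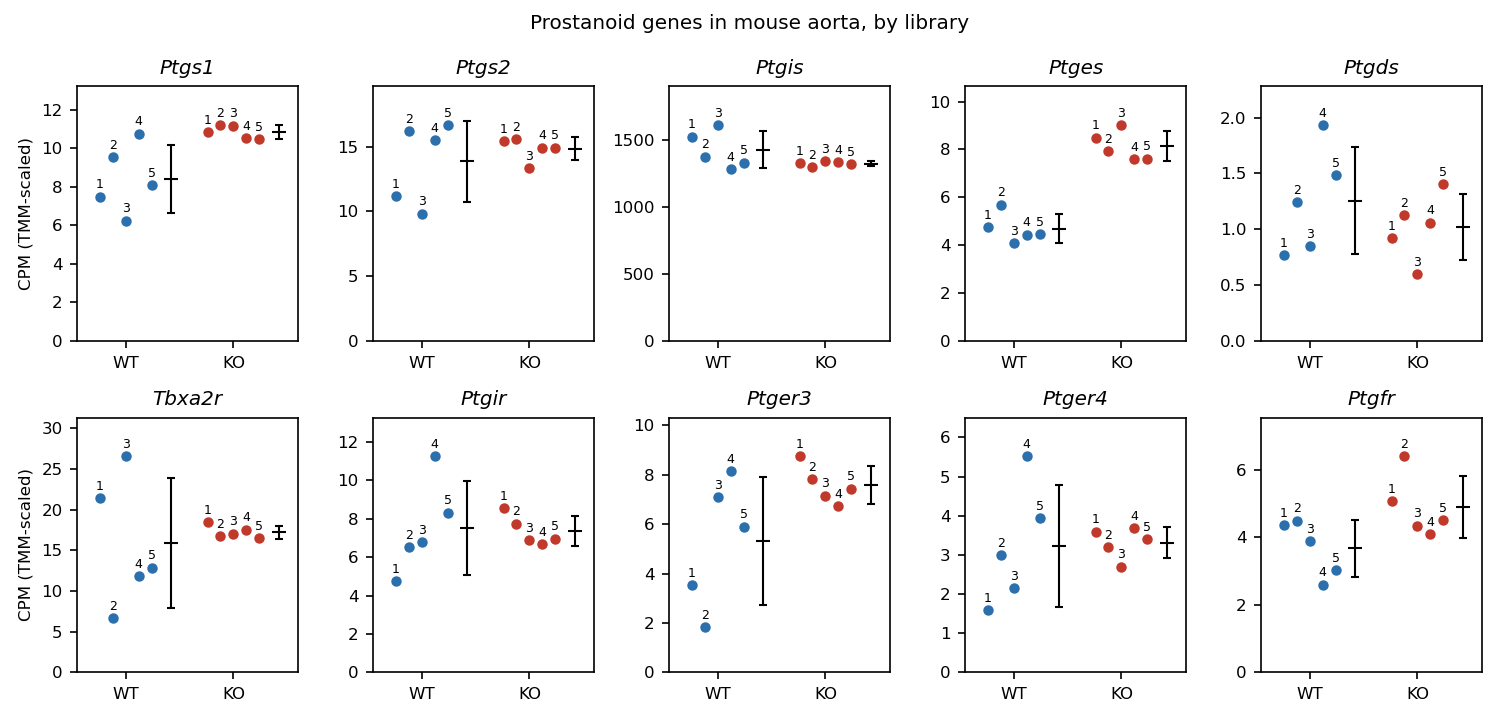
Each panel plots 1 gene, with CPM (TMM-scaled) on the vertical axis from 0 and points for the 5 WT and 5 KO libraries, numbered by replicate; the horizontal mark and bar give the mean and SD of a group. Ptges is the panel in which the groups stand apart, at 4.09 to 5.69 CPM in WT and 7.60 to 9.03 CPM in KO.

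For Ptges and Ptgs1, the 250 bases before the annotated start are shown, since Ptges was the gene that passed and Ptgs1, which encodes an enzyme acting before it, had the next smallest adjusted p. The sequences are from RefSeq (GRCm38.p6), written 5′ to 3′ on the strand of the gene, and capitals mark GGGCGG, the core of a GC box. The Ptges stretch is chr2:30903298-30903547 on the minus strand and the Ptgs1 stretch chr2:36230176-36230425 on the plus strand. The RefSeq start of Ptges lies inside the span from 30889471 to 30929863 that the annotation used for the coordinates gives this gene, so the stretch precedes 1 RefSeq start and not the outer end of that span.
Ptges: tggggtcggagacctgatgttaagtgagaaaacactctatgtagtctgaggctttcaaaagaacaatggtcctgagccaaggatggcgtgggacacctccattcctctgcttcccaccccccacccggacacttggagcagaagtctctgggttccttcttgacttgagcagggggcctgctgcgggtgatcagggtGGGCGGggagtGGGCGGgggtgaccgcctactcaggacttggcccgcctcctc
Ptgs1: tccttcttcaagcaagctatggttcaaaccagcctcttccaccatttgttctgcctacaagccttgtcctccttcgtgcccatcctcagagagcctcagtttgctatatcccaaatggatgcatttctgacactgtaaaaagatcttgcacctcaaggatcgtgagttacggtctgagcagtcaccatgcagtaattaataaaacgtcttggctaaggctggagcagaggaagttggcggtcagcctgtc
The Ptges stretch holds GGGCGG 2 times on its own strand, starting 53 and 42 bases before the annotated start. The Ptgs1 stretch holds none of the motifs searched, which were GGGCGG, the TATA box TATAAA, the E-box CACGTG, the cyclic AMP response core CGTCA and CCAAT, each on both strands. Promoters were matched for 9 of the 10 genes, all except Ptgis. GGGCGG was found in 6 of the 9 (Ptgs2, Ptges, Ptgir, Ptger3, Ptger4 and Ptgfr) and in 32.7% of 32851 promoters of the same length. TATAAA and CACGTG were found in 0 of the 9, against 12.4% and 6.02% of all promoters. CGTCA was found in Tbxa2r alone (17.8% of all promoters) and CCAAT in Tbxa2r and Ptger4 (33.8%). These are matches of letters, not measured binding sites.

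The first step of synthesis was carried by both cyclooxygenase genes at low and similar levels. Ptgs1 (ENSMUSG00000047250, chromosome 2, 36230426 to 36252272 in GRCm38), the constitutive form and the form of platelets, had 10.8, 11.2, 11.2, 10.5 and 10.5 CPM in KO1 to KO5. It had 7.47, 9.54, 6.24, 10.7 and 8.08 CPM in WT1 to WT5. All KO libraries were near the top of the WT range, and 3 of 5 lay above every WT library, with WT4 the highest of the WT libraries. The mean ± SD (n = 5 in each group, here and below) was 10.8 ± 0.344 CPM in KO and 8.41 ± 1.76 CPM in WT. The log2 difference was 0.36 (SE 0.13, edgeR adjusted p = 0.0811), a fold of 1.28 with a 95% interval of 1.06 to 1.56. With KO as 1 sample the interval was 0.812 to 2.03. Ptgs1 passed in 5 of 19 alternatives other than the KO sum. By edgeR the adjusted p was 0.0468 without WT2, 0.0192 without WT4 and 0.0333 with no low-count filter. It was 0.0362 by DESeq2 and 0.00253 by limma-voom with sample weights, a fit that called 6477 genes in all against 2242 in the main fit. Leaving out 1 KO library gave 0.131 to 0.157 by edgeR. The summed level of 9 platelet markers was 165 to 175 CPM in KO and 174 to 218 CPM in WT. Of the 5 tested, 1 (Ppbp) passed, lower in KO, beside 7.43% of all tested genes passing lower. Gp6 and Tubb1 were at 0 in 3 and 2 KO libraries. The part of these markers in the Ptgs1 values was not tested.

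Ptgs2 (ENSMUSG00000032487, chromosome 1, 150100031 to 150108227), the inducible cyclooxygenase, had 15.4, 15.6, 13.3, 14.9 and 14.9 CPM in KO1 to KO5 and 11.2, 16.2, 9.83, 15.5 and 16.7 CPM in WT1 to WT5. WT1 and WT3 were low and the other 3 WT libraries sat near or above the top of the KO range, so the groups overlapped. Its log2 difference was 0.09 (SE 0.14, edgeR adjusted p = 0.697), and the fold of 1.07 had an interval of 0.866 to 1.32, or 0.657 to 1.73 with KO as 1 sample. Ptgs2 is also an immediate early gene, one of those switched on within minutes of a stimulus, tissue handling included. Of 24 other immediate early genes, 1 (Ier3) passed higher and 5 (Zfp36, Nr4a3, Ier2, Myc and Dusp5) passed lower in KO, against 6.84% and 7.43% of all tested genes, and 0 passed with KO as 1 sample. Their summed level was 1186 to 1219 CPM in KO and 1116 to 1487 CPM in WT, with 1116 in WT2 and 1208 in WT3. Per exon length, Ptgs2 made up 53.7% ± 1.89 of the 2 cyclooxygenases in KO and 58.1% ± 3.41 in WT (50.3% to 54.7% against 55.0% to 63.6%). With the length of the longest transcript in place of all exons, its share was 46.8% ± 1.88 in KO and 51.4% ± 3.53 in WT, so which of the 2 genes was the larger in KO depended on the length used. The share was not tested. It restates the values of both genes, neither of which passed, and is no separate result.

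Ptgis stood far above every other gene of the set. The gene (ENSMUSG00000017969, chromosome 2, 167191805 to 167240604) encodes prostacyclin synthase and had 1327, 1298, 1342, 1334 and 1321 CPM in KO1 to KO5. In WT1 to WT5 it had 1526, 1377, 1613, 1284 and 1331 CPM. WT1 and WT3 were highest, and the KO libraries fell within the lower part of the WT range. The means were 1325 ± 16.8 and 1426 ± 138 CPM, and the log2 difference was -0.11 (SE 0.07, edgeR adjusted p = 0.319). The fold of 0.929 had an interval of 0.839 to 1.03, or 0.697 to 1.24 with KO as 1 sample. Without WT1 and WT3 the log2 difference was 0.01 (adjusted p = 0.926). In CPM per kilobase of exon, Ptgis had 556 ± 53.9 in WT and 516 ± 6.53 in KO, which placed it 61st and 54th among 35562 genes with a known length.

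Ptges (ENSMUSG00000050737, chromosome 2, 30889471 to 30929863) had 8.50, 7.93, 9.03, 7.60 and 7.62 CPM in KO1 to KO5. It had 4.76, 5.69, 4.09, 4.45 and 4.46 CPM in WT1 to WT5. Every KO library exceeded every WT library, a separation that 7.38% of tested genes showed in that direction and 7.22% in the other. It was the only one of the 10 genes whose groups did not overlap. The means were 8.14 ± 0.616 and 4.69 ± 0.606 CPM, resting on 206 to 241 counts per library in KO and 82 to 133 in WT. On the log2 scale the difference was 0.79 (SE 0.11), with an edgeR adjusted p of 0.000938, and the fold of 1.73 had an interval of 1.47 to 2.04. With KO as 1 sample the fold was 1.73 with an interval of 1.19 to 2.53, and the adjusted p was 0.999 by the same edgeR test. Ptges passed under each of 19 other alternatives, with adjusted p from 9.24e-10 to 0.0130. The WT spread of Ptges was narrow, with a highest WT library 1.39 times the lowest, against 1.26 times for Ptgis and 1.70 to 4.43 times for the other 8 genes.

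Several marker lists also differed between the groups, beside 6.84% of all tested genes passing higher and 7.43% lower. In bulk tissue, fewer cells of a type and less RNA per cell cannot be told apart. Of 8 fibroblast markers, 5 (Dcn, Lum, Dpt, Scara5 and Cd34) passed higher and 0 lower, and the summed level of the 8 was 2816 to 2866 CPM in KO and 2152 to 2528 CPM in WT. Of 7 nerve markers, 4 passed higher, Mbp, Dbh and Th among them, with sums of 47.5 to 51.8 CPM and 20.6 to 32.9 CPM. Of 5 tested lymphocyte markers, 2 (Ighm and Jchain) passed higher, with sums over the 7 listed of 180 to 183 CPM and 6.48 to 16.4 CPM. All 5 red cell markers passed lower, with sums of 19.2 to 21.3 CPM and 65.7 to 327 CPM. Of 2 tested mesothelial markers, 1 (Upk3b) passed higher, with sums over the 8 listed of 2.55 to 3.81 CPM and 1.49 to 2.69 CPM, and Lrrn4, Muc16 and Upk1b were at 0 in 1 or more libraries. None of the fibroblast, nerve and red cell markers was at 0 in any library, and among the lymphocyte markers Ms4a1 was at 0 in 1 WT library. With KO as 1 sample, 0 of the fibroblast, nerve, red cell and mesothelial markers passed and 1 lymphocyte marker, Ighm, did. The part of these markers in the Ptges result was not tested.

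Ptgds (ENSMUSG00000015090, chromosome 2, 25466709 to 25470046), which encodes the lipocalin-type prostaglandin D synthase, was the least counted gene of the set, with 16 to 47 counts per library. It had 0.92, 1.13, 0.60, 1.06 and 1.41 CPM in KO1 to KO5 and 0.77, 1.24, 0.85, 1.93 and 1.49 CPM in WT1 to WT5. The groups overlapped throughout, with the highest value in WT4 and the lowest in KO3. The log2 difference was -0.30 (SE 0.29, edgeR adjusted p = 0.536), a fold of 0.811 with an interval of 0.520 to 1.27. Without WT4 the log2 difference was -0.09 (adjusted p = 0.873) and without KO3 -0.16 (adjusted p = 0.780).

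Relative to Ptgis, the levels of Ptges and of Tbxas1, which encodes thromboxane synthase, were higher in KO. These ratios restate the calls of both genes and are no separate result, as Ptgis itself had a log2 difference of -0.11. Per exon length, the level of Ptgis was 250 ± 17.4 times that of Ptges in KO (228 to 269) and 473 ± 85.3 times in WT (371 to 604), so the ranges did not overlap. The level of Ptgis was 1566 ± 368 times that of Tbxas1 in KO (1165 to 2105) and 3284 ± 419 times in WT (2925 to 3947), again without overlap. Ptgis made up 99.4% ± 0.0133 of the summed level of Ptgis, Ptges, Ptgds, Hpgds and Tbxas1 in KO and 99.6% ± 0.0802 in WT. The level of Ptgis over both cyclooxygenases together was 85.7 ± 3.68 in KO and 113 ± 37.3 in WT, with the KO values inside the WT range of 81.4 to 168.

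**Figure D2:**
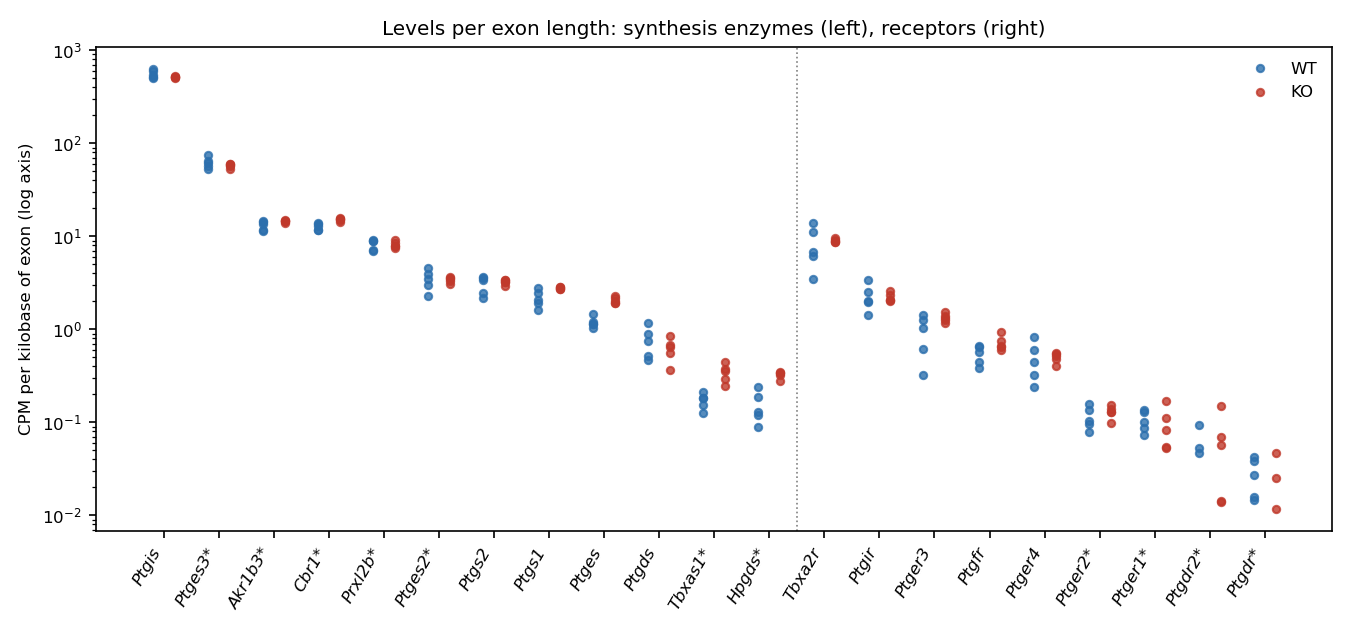
Points give CPM per kilobase of exon on a log axis for each library (WT and KO side by side) of 12 synthesis enzymes on the left and 9 receptors on the right; asterisks mark genes outside the set of 10, and 4 values at 0 (2 KO libraries for Ptgdr and 2 WT libraries for Ptgdr2) are not drawn. Ptgis lies above all other genes shown at a WT mean of 556, and Tbxa2r is the highest receptor at 8.27.

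By level per exon length in WT, the order of the set was Ptgis (556), Tbxa2r (8.27 ± 4.16), Ptgs2 (3.03 ± 0.684), Ptgir (2.26 ± 0.730), Ptgs1 (2.17 ± 0.454), Ptges (1.19 ± 0.154), Ptger3 (0.932 ± 0.455), Ptgds (0.762 ± 0.290), Ptgfr (0.541 ± 0.123) and Ptger4 (0.487 ± 0.234). Ptgis was separate from Tbxa2r, and Ptgs1 from Ptges, in that their WT ranges did not overlap. The other 7 pairs of neighbours in this order had WT ranges that overlapped. With the length of the longest transcript the WT order changed: Ptgs1 (2.93) came before Ptgir (2.27), Ptger3 (1.48) before Ptges (1.29), and Ptger4 (0.859) before Ptgfr (0.554). In KO, where the spread was close to counting error, Ptgs1 (2.79 ± 0.0885) stood above Ptgir (2.21 ± 0.231), and the mean of Ptgfr (0.720 ± 0.135) lay above that of Ptgds (0.620 ± 0.179) with ranges that overlapped.

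Among the receptors no gene passed the test, and the main feature was the spread between WT libraries. Tbxa2r (ENSMUSG00000034881, chromosome 10, 81328731 to 81335172), the thromboxane receptor gene, had 18.5, 16.7, 17.0, 17.5 and 16.5 CPM in KO1 to KO5. It had 21.4, 6.67, 26.5, 11.8 and 12.9 CPM in WT1 to WT5. WT1 and WT3 lay above all KO libraries and WT2, WT4 and WT5 below all of them. The highest WT library was 3.98 times the lowest, and the WT SD on the log2 scale was at the 94.4th percentile of all tested genes. The means were 17.2 ± 0.793 and 15.9 ± 7.98 CPM, and the log2 difference was 0.12 (SE 0.29, edgeR adjusted p = 0.820), a fold of 1.09 with an interval of 0.694 to 1.71. Summing KO into 1 sample widened it to 0.391 to 3.03. Its log2 difference was -0.06 (adjusted p = 0.878) without WT2, and 0.74 (adjusted p = 0.0110) without WT1 and WT3. By limma-voom with sample weights, which called 6477 genes in all against 2242 in the main fit, it was 0.41 (adjusted p = 0.0120).

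Ptgir (ENSMUSG00000043017, chromosome 7, 16906490 to 16910905), the prostacyclin receptor gene, had 8.54, 7.74, 6.89, 6.69 and 6.95 CPM in KO1 to KO5 and 4.76, 6.50, 6.79, 11.2 and 8.31 CPM in WT1 to WT5. WT4 was high and WT1 low, and the KO libraries lay between them. On the log2 scale the difference was -0.03 (SE 0.19, edgeR adjusted p = 0.932), and the fold of 0.978 had an interval of 0.732 to 1.31. Per exon length the level of Tbxa2r was 3.75 to 4.56 times that of Ptgir in KO. In WT the same ratio was 7.83, 1.78, 6.80, 1.83 and 2.69 in WT1 to WT5, so the WT libraries lay on both sides of the KO libraries and none fell among them.

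The receptors for prostaglandin E that could be tested were led by Ptger3, whose product mostly lowers cyclic AMP. Ptger3 (ENSMUSG00000040016, chromosome 3, 157566892 to 157645888) had 8.74, 7.82, 7.15, 6.73 and 7.43 CPM in KO1 to KO5 and 3.53, 1.84, 7.09, 8.15 and 5.90 CPM in WT1 to WT5. WT1 and WT2 were low, WT3 and WT4 lay among the KO libraries, and 1 of 5 KO libraries lay above every WT library. The means were 7.57 ± 0.763 and 5.30 ± 2.59 CPM. The log2 difference was 0.52 (SE 0.31, edgeR adjusted p = 0.303), and the fold of 1.43 had an interval of 0.889 to 2.30. Without WT2 the log2 difference was 0.31 (adjusted p = 0.308) and without WT4 0.73 (adjusted p = 0.137). Ptger3 had the widest WT range of the set, with a highest library 4.43 times the lowest and a WT SD at the 95.9th percentile.

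Ptger4 (ENSMUSG00000039942, chromosome 15, 5206661 to 5244187), whose product raises cyclic AMP, had 3.59, 3.20, 2.70, 3.69 and 3.40 CPM in KO1 to KO5. It had 1.59, 2.99, 2.15, 5.52 and 3.95 CPM in WT1 to WT5. WT1 and WT3 lay below and WT4 and WT5 above all KO libraries. Its log2 difference was 0.03 (SE 0.28, edgeR adjusted p = 0.961), with an interval of the fold of 0.667 to 1.56. In GRCm38 16.5% of the exon bases of Ptger4 overlap Gm15937 or Ttc33. Its counts may hold reads of those genes or lack reads that were dropped as shared, and which of these applies was not tested. The overlap was 3.81% for Ptgs1, 4.85% for Ptgfr and 6.08% for Ptgis, and 0 for the other 6 genes.

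Ptgfr (ENSMUSG00000028036, chromosome 3, 151796502 to 151837630), the prostaglandin F receptor gene, had 5.07, 6.39, 4.34, 4.09 and 4.51 CPM in KO1 to KO5 and 4.35, 4.49, 3.89, 2.59 and 3.02 CPM in WT1 to WT5. WT4 and WT5 were the lowest, and 3 of 5 KO libraries lay above every WT library. The means were 4.88 ± 0.916 and 3.67 ± 0.832 CPM. On the log2 scale the difference was 0.41 (SE 0.18, edgeR adjusted p = 0.150), a fold of 1.33 with an interval of 1.01 to 1.75. It was 0.64 by limma-voom with sample weights (adjusted p = 0.00628), which called 6477 genes in all against 2242 in the main fit.

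**Figure D3:**
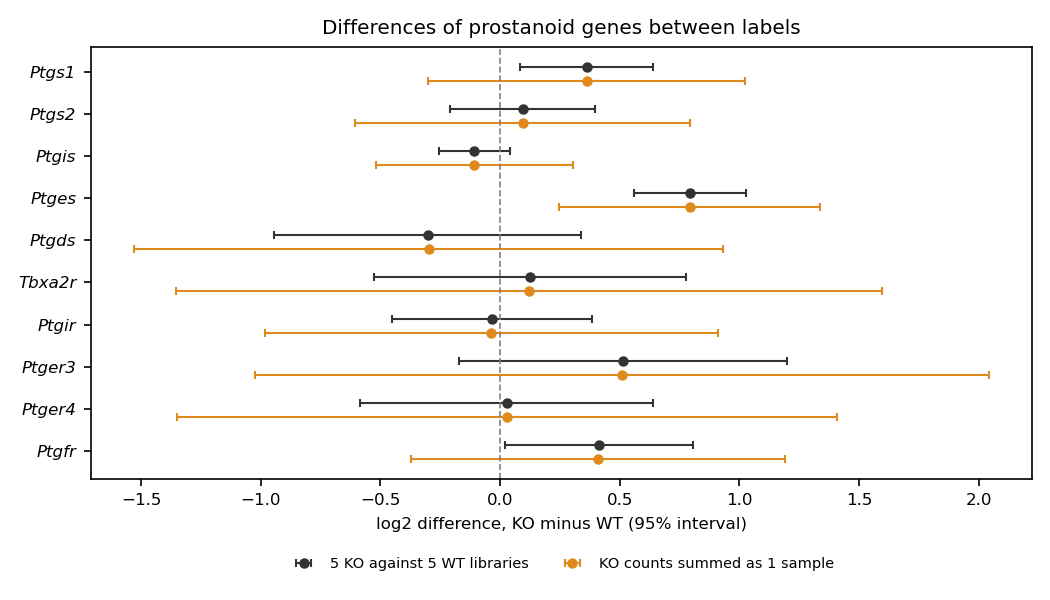
Points give the log2 difference, KO minus WT, of each of the 10 genes and bars its 95% interval, in black for 5 KO against 5 WT libraries and in orange with the KO counts summed into 1 sample. The interval of Ptges lies above 0 in both fits, those of Ptgs1 and Ptgfr in the first alone.

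The WT libraries that were high for one gene were often the low ones for another. Tbxa2r and Ptgis were highest in WT1 and WT3, and Ptgs1, Ptgs2 and Ptger4 were lowest there. The summed level of the 8 smooth muscle markers was 40185 and 40304 CPM in WT1 and WT3, 32245, 26597 and 29441 CPM in WT2, WT4 and WT5, and 36490 to 37142 CPM in KO. Tbxa2r was lowest in WT2, at 6.67 CPM, whereas the sum of the smooth muscle markers was lowest in WT4. Of these markers 0 passed higher and 1 passed lower, beside 6.84% and 7.43% of all tested genes. It was Tagln, at 20.8 to 23.5 CPM in KO and 22.3 to 29.3 CPM in WT, and 67.9% of its exon bases overlap other genes. The summed level of the 10 endothelial markers was 264 and 202 CPM in WT1 and WT3, 598, 785 and 636 CPM in WT2, WT4 and WT5, and 334 to 348 CPM in KO. None of the 10 passed (Pecam1, the most abundant, had 155 to 160 CPM in KO and 107 to 405 CPM in WT), and no smooth muscle or endothelial marker was at 0 in any library. The part of these markers, and of the mitochondrial share given above, in the spread of the receptor genes was not tested.

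**Figure D4:**
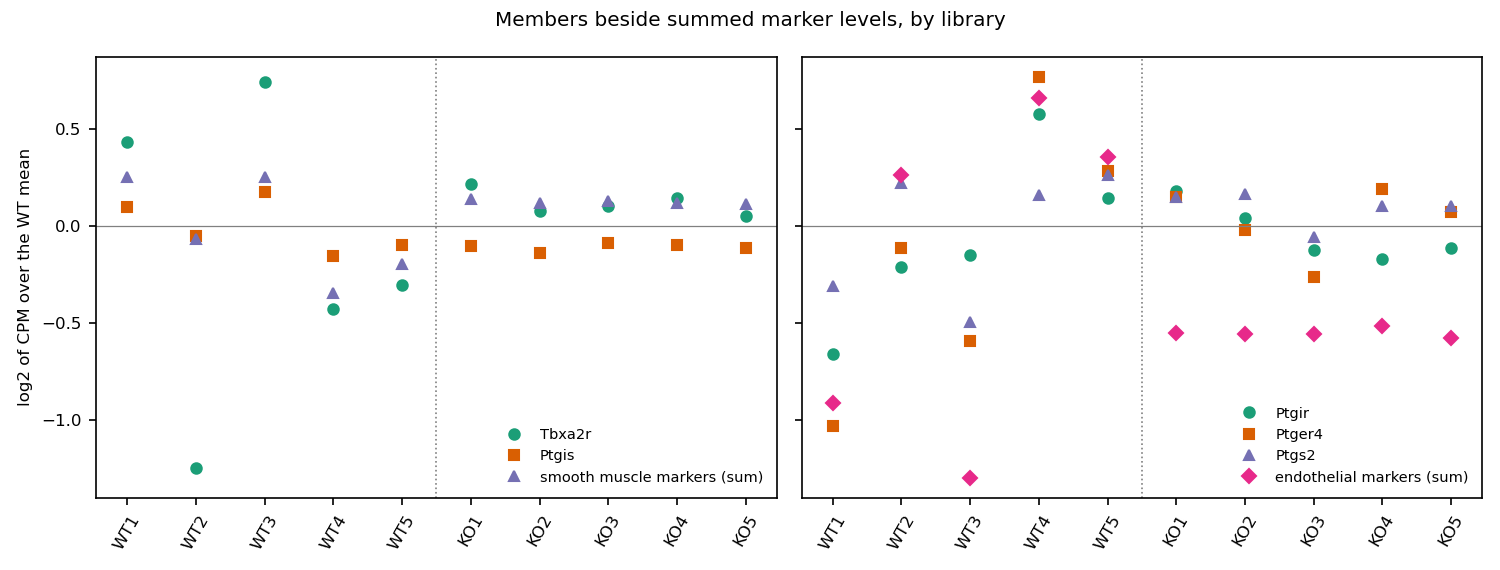
For each library, points give the log2 of CPM over the WT mean, for Tbxa2r and Ptgis beside the sum of 8 smooth muscle markers on the left, and for Ptgir, Ptger4 and Ptgs2 beside the sum of 10 endothelial markers on the right. In WT1 and WT3 the smooth muscle sum, Tbxa2r and Ptgis lie above the line, and the endothelial sum, Ptger4 and Ptgs2 lie below it. Other libraries differ: in WT2 the endothelial sum lies above the line, and Ptgir and Ptger4 below it. In all KO libraries the smooth muscle sum lies above the line and Ptgis below it.

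For the 3 genes of widest range over the 10 libraries, the 5 protein-coding genes of most similar pattern were found by the root-mean-square difference of centred log2 CPM over the 10 libraries, as a description. For Ptger3 (range 2.20 on the log2 scale) they were Gtpbp6 (0.149), Arvcf (0.168), Cyp2e1 (0.169), Cfd (0.190) and Tmem132a (0.196). Cfd encodes adipsin, a serine protease made by fat cells. The 6 adipocyte markers summed to 187, 169, 87.7, 859 and 608 CPM in WT1 to WT5 and to 255 to 274 CPM in KO, and none passed. For Tbxa2r (range 1.98) they were Adam33 (0.0894), Grip2 (0.0973), Rrad (0.106), Dusp8 (0.114) and Tnk2 (0.143). For Ptger4 (range 1.75) they included Icam1 (0.0884), Egr2 (0.139), Pla2g7 (0.156) and Esm1 (0.164). Icam1 encodes a leukocyte adhesion molecule and Egr2 an immediate early transcription factor.

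The wider pathway was described through 63 further genes in 6 lists, of which 61 were found and 54 tested. Of these 8 passed higher and 0 lower, where 14.3% of all tested genes passed, 6.84% higher and 7.43% lower. In number, 8 calls among 54 are close to the share among all genes. The split of all calls between higher and lower moved with the scaling, as given above. The median log2 difference was 0.10 against -0.02 over all tested genes. With KO as 1 sample 0 passed after adjustment and 3 (Pla2g2d, Tbxas1 and Ephx1) had an unadjusted p under 0.05.

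Of 8 tested genes that release arachidonic acid, 1 passed, higher in KO, beside 6.84% of all tested genes passing higher. Pla2g2d, a secreted phospholipase A of lymphoid tissue, had 2.99, 3.61, 4.27, 3.25 and 3.40 CPM in KO1 to KO5 and 1.59, 0.98, 1.55, 0.95 and 0.70 CPM in WT1 to WT5. Every KO library lay above every WT library, a separation that 7.38% of tested genes showed. The log2 difference was 1.61 (SE 0.22, edgeR adjusted p = 0.000931). Per exon length the leading genes of this list were Mgll, a monoglyceride lipase, and Pla2g4a, the cytosolic phospholipase A that feeds cyclooxygenase. Mgll had 162 ± 2.43 CPM in KO and 153 ± 21.8 CPM in WT (log2 difference 0.08, edgeR adjusted p = 0.568). Pla2g4a had 76.9 ± 1.33 and 92.5 ± 22.0 CPM (log2 difference -0.27, edgeR adjusted p = 0.219).

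Of the 7 other synthases, 3 passed, all higher in the libraries labelled KO, beside 6.84% of all tested genes passing higher. Tbxas1, thromboxane synthase, had 2.23, 3.27, 3.41, 4.06 and 2.66 CPM in KO1 to KO5 and 1.68, 1.67, 1.95, 1.15 and 1.39 CPM in WT1 to WT5 (log2 difference 1.00, SE 0.20, edgeR adjusted p = 0.00761). Hpgds, the haematopoietic prostaglandin D synthase, had 2.15, 2.18, 2.06, 2.23 and 1.78 CPM in KO and 1.54, 0.77, 1.20, 0.58 and 0.84 CPM in WT (log2 difference 1.08, SE 0.24, edgeR adjusted p = 0.0124). In both genes every KO library lay above every WT library, as in 7.38% of all tested genes. Cbr1, a carbonyl reductase that can act on prostaglandin E, had 38.8 ± 1.38 and 32.6 ± 2.49 CPM (log2 difference 0.25, SE 0.06, edgeR adjusted p = 0.0165). The other routes to prostaglandin E, Ptges2 and Ptges3, had log2 differences of -0.02 and -0.10 (adjusted p 0.948 and 0.446). Ptges3, a co-chaperone also called cytosolic prostaglandin E synthase, was the most abundant of this list per exon length, at 61.8 in WT, followed by Akr1b3, an aldose reductase with prostaglandin F synthase activity, at 13.1.

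Tbxas1 and Hpgds are known from macrophages and other blood-derived cells. Of 9 macrophage markers, 1 passed higher, beside 6.84% of all tested genes. It was Adgre1, at 7.95 to 9.89 CPM in KO and 3.44 to 5.64 CPM in WT. The summed level of the 9 was 228 to 236 CPM in KO and 152, 332, 170, 239 and 244 CPM in WT1 to WT5, and none was at 0 in any library. Of 7 tested mast cell markers, 0 passed, and the summed level of the whole list was 37.7 to 40.1 CPM in KO and 17.3 to 35.9 CPM in WT, with Ms4a2 at 0 in 2 WT libraries. The part of either list in the Tbxas1 and Hpgds results was not tested.

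Of the 4 remaining receptors, Ptger1 and Ptger2 were low, and Ptgdr and Ptgdr2 were near the limit of detection. Ptger1 and Ptger2 had 0.511 ± 0.260 and 0.673 ± 0.104 CPM in KO and 0.570 ± 0.146 and 0.590 ± 0.162 CPM in WT, and neither passed. The prostaglandin D receptor genes Ptgdr and Ptgdr2 had too few counts to be tested, at 0 to 0.150 and 0.0366 to 0.399 CPM in KO and 0.0464 to 0.136 and 0 to 0.250 CPM in WT. A count of 0 allows up to 0.110 to 0.150 CPM (3 counts of a library), by counting error only.

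Of 5 genes for breakdown and transport, 2 passed, both higher in KO, beside 6.84% of all tested genes passing higher. Hpgd, the 15-hydroxyprostaglandin dehydrogenase that inactivates prostaglandins, had 7.82, 6.73, 7.64, 7.82 and 7.80 CPM in KO1 to KO5 and 4.71, 1.75, 4.64, 1.98 and 1.58 CPM in WT1 to WT5. WT1 and WT3 were the highest WT libraries and still below every KO library, a separation that 7.38% of tested genes showed. The log2 difference was 1.37 (SE 0.29, edgeR adjusted p = 0.0119), and with KO as 1 sample the interval of the fold was 0.992 to 6.73. Ptgr2, a prostaglandin reductase, had 17.4 ± 0.530 and 13.4 ± 2.38 CPM (log2 difference 0.38, SE 0.11, edgeR adjusted p = 0.0355), and that call was lost on leaving out any KO library (adjusted p 0.0693 to 0.0826) or WT3 (0.0578). Ptgr1, the most abundant of the list per exon length, had 18.2 ± 1.49 and 17.0 ± 3.30 CPM (edgeR adjusted p = 0.637).

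None of 23 genes for signalling from the receptors passed, where 14.3% of all tested genes did. They include G proteins, adenylyl cyclases and phosphodiesterases. Their median log2 difference was 0.05, and single genes ran from -0.51 for Pde4d, a cyclic AMP phosphodiesterase, to 0.34 for Adcy9, an adenylyl cyclase. Prkar1a, a regulatory subunit of the cyclic AMP dependent kinase, had 763 ± 7.26 and 678 ± 46.7 CPM (log2 difference 0.17, edgeR adjusted p = 0.0600). Adcy5, the adenylyl cyclase with the highest level per exon length, had 911 ± 2.12 and 994 ± 113 CPM (log2 difference -0.12, edgeR adjusted p = 0.274). Gnas was listed at 8.61 ± 0.383 and 9.85 ± 2.58 CPM, a low count for the stimulatory G protein gene.

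Of 9 tested genes of other eicosanoid routes, 2 passed, both higher in KO, beside 6.84% of all tested genes passing higher. Ephx1, microsomal epoxide hydrolase, had 379, 381, 377, 377 and 374 CPM in KO1 to KO5 and 251, 305, 306, 231 and 249 CPM in WT1 to WT5. The groups did not overlap, as in 14.6% of tested genes (log2 difference 0.49, SE 0.08, edgeR adjusted p = 0.00263). Lta4h, leukotriene A hydrolase, had 56.2 ± 1.94 and 49.9 ± 2.43 CPM (log2 difference 0.17, SE 0.05, edgeR adjusted p = 0.0337). The Lta4h call was lost on leaving out any KO library (adjusted p 0.0559 to 0.0936) or WT5 (0.0774). Ephx2, the soluble hydrolase, had 28.2 ± 0.683 and 33.2 ± 16.7 CPM (edgeR adjusted p = 0.636).

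**Figure D5:**
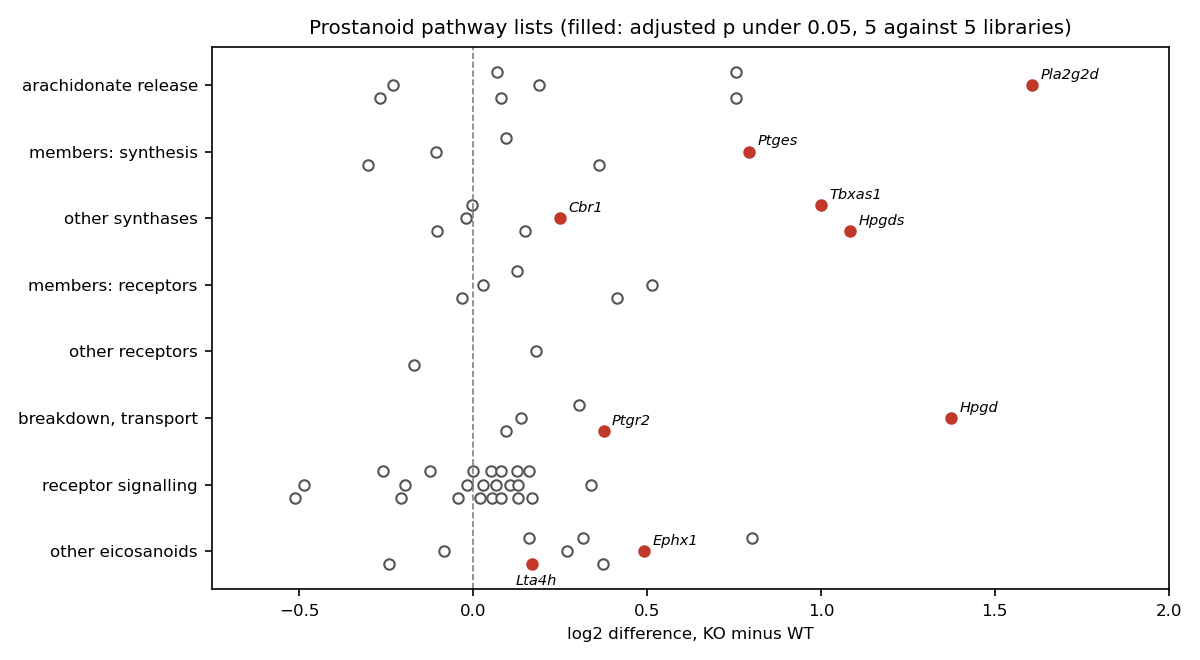
Each point is the log2 difference, KO minus WT, of 1 tested gene, in rows for the 2 lists that make up the 10 genes (members) and the 6 further lists; filled points passed an adjusted p of 0.05 in the fit of 5 against 5 libraries. All 9 filled points lie to the right of 0, from Lta4h at 0.17 to Pla2g2d at 1.61, and the rows of both receptor lists and of receptor signalling have none. Of all tested genes, 1075 passed higher and 1167 lower in this fit.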

How the data were processed

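The deposited files hold whole-number counts per Ensembl gene for 10 mouse aorta libraries, 5 labelled KO and 5 labelled WT as the titles give it. Frozen tissue, Trizol and the TruSeq RNA kit were used, per the labels' protocols. Bowtie 0.12.2 and the mouse builds mm8 and mm9 are named, without a role, in the submitters' processing notes. How reads were counted, with which annotation and with or without strand, is not given in the sources used here. Overlapping genes may therefore share reads or lose them. Identifiers were matched to GENCODE M21 (GRCm38) for coordinates and exon lengths (35562 of 35667).

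Genes were tested with edgeR 4.0.16 in R 4.3.3 (robust quasi-likelihood F test, TMM factors, filterByExpr with a minimum count of 10 and total of 15) over all 15710 genes that passed the filter, with Benjamini-Hochberg adjusted p called under 0.05. CPM values are TMM-scaled, and intervals cover 95%. The fit with the KO counts summed used the same genes. The code was tested on simulated data. Alternatives were other size factors and filters, DESeq2 1.42.0, limma-voom (limma 3.58.1), a replicate block, and leaving out libraries. Likeness used log2 CPM with a prior count of 2 and genes with a mean of at least 1.

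The 10 genes and the 21 lists were chosen with earlier results of these data known, so they are no independent evidence of a direction. The rule for named genes takes the 10 genes, every pathway gene past the threshold, the 2 genes of each pathway list with the highest level per length, the 2 most abundant markers of a list and its called genes, and the 5 genes most alike to each of 3 members. Ptges2, Ephx2, Gnas, Pde4d, Adcy9 and the receptors outside the set were also named after their values were seen. Some genes that the rule names are left out of the text. Same-numbered KO and WT libraries did not deviate together, but the near repeats among KO libraries leave little spread to compare. The numbers were not used as pairs in the main fit, and whether they mark pairs is not settled.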

Additional observations from a re-analysis of the deposited data

Results flagged for a closer look

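Hpgd in KO2 stood apart from the other libraries labelled KO, at 6.73 CPM against 7.64 CPM for the nearest. That gap was 0.834 of the range of the 5 KO libraries, above the critical value of 0.71 of Dixon's test. It was 1 of 36 groups of libraries tested over the 10 genes and the 8 pathway genes that passed, and chance flags about 1 in 20. KO2 still lay above every WT library for this gene.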

How the results depend on the processing

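Ptgds rests on 16 to 47 counts per library, the fewest of the 10 genes, and the near repeats among KO libraries limit every p-value. Among results of single genes, 311 of 360 alternatives kept their direction and side of the threshold, 24 lost the call, 8 gained it and 17 changed sign; no called difference changed sign. The cause of these changes was not tested.

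The 2242 genes called became 6477 with limma-voom with sample weights, 4386 without WT1 and WT3, and 7 with KO summed as 1 sample. The 1 of 10 genes called became 2 with no low-count filter, with DESeq2 and without WT1 and WT3, 4 with limma-voom and 0 with KO summed. With limma-voom, 4 of 10 is close to the share among all genes, 6477 of 15710 tested. DESeq2 called 2975 genes in all, and the fit with no low-count filter 1970. The 8 pathway genes called became 24 with limma-voom, 19 without WT1 and WT3 and 0 with KO summed. The 24 of 54 tested pathway genes with limma-voom are likewise close to the share among all genes. The 19 without WT1 and WT3 stand beside 4386 genes called in all. Leaving out 1 library gave 1287 to 2678 genes called (1287 to 1393 for each KO library), 1 to 2 of the 10 genes and 6 to 11 pathway genes. With KO summed, leaving out 1 WT library, an alternative added after seeing the data, gave 1 to 5 genes in place of 7 (2, 5, 1, 2 and 1 without WT1 to WT5) and 0 of the 10 genes.

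The replicate number as a block gave 1319 genes called, 1 of the 10 genes and 5 pathway genes; Cbr1 (adjusted p = 0.0502), Ptgr2 (0.0673) and Lta4h (0.0740) were lost by edgeR. Deviations of same-numbered libraries from their group means correlated at -0.0397 to 0.0424, and 2 of 5 correlated best with their own number. As the KO libraries differ by little more than counting error, these values cannot show whether the numbers mark pairs.

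Changes of sign in log2 difference, none past the threshold, were Ptgir at 0.0090 with upper-quartile factors, 0.033 with total counts, 0.015 with no filter and 0.012 with the block. They were also Ptgs2 at -0.10 and Ptger4 at -0.22 with limma-voom, and, without WT1 and WT3, Ptgs2 at -0.10, Ptgis at 0.0074 and Ptger4 at -0.31. Leaving out 1 library gave Ptgds -0.44 to -0.089, Ptger3 0.31 to 0.73, Ptgs2 -0.0054 to 0.17, Tbxa2r -0.062 to 0.39, Ptgir -0.15 to 0.16 and Ptger4 -0.13 to 0.31. With KO summed as well, the ranges of the last 4 genes were -0.0066 to 0.17, -0.068 to 0.39, -0.16 to 0.15 and -0.14 to 0.31.

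With the length of the longest transcript, levels per kilobase were 3.78 in KO and 2.93 in WT for Ptgs1, 629 and 677 for Ptgis, 2.12 and 1.48 for Ptger3, 0.879 and 0.859 for Ptger4, and 2.23 in KO for Ptges. Ptgis in KO was 529 with total counts.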

Other observations

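Of 16 inflammatory genes that often accompany Ptgs2, 8 had enough counts to be tested. Of these 0 passed in the edgeR test, where 14.3% of all tested genes passed. Among the 16, 5 were at 0 in 1 or more libraries. Nfkbia, an inhibitor of NF-kB, had 104 ± 2.08 CPM in KO and 122 ± 22.1 CPM in WT (log2 difference -0.23, edgeR adjusted p = 0.152). Vcam1, a vascular adhesion molecule, had 98.5 ± 2.48 and 73.8 ± 18.5 CPM (log2 difference 0.41, edgeR adjusted p = 0.0933). With KO as 1 sample 0 of the 8 had an unadjusted p under 0.05.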
